A study of Mus musculus with 6 samples.

Results

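The genes described here are Pou5f1, Sox2, Nanog and Sall4, which encode the core transcription factors of embryonic stem cells (the Pou5f1 protein is also called Oct4). They were chosen by symbol, and all 4 were among the 12331 gene rows of the table. Expression was measured by RNA-seq in 6 libraries of E14tg2a, a long-established line of mouse embryonic stem cells grown with LIF, the cytokine that holds such cells undifferentiated. All libraries started from total RNA of these cells at 10 pg, about the amount in one cell, which was copied into cDNA from an oligo(dT) primer and amplified by 20 PCR cycles. In 3 libraries the cDNA was broken by sonication before adaptors were ligated, and in the remaining libraries hyperactive Tn5 transposase cut and tagged it in one step (tagmentation). The labels name no transgene, deletion or treatment in any group. Both methods carried the numbers 1 to 3. The labels call these technical replicates, so no p-value here speaks of the spread among cultures. The values are RPKM, reads divided by the length of the gene model and by the alignments of the library. Orders and ratios between genes given below are those of RPKM. Whether priming and amplification copied long and short transcripts alike was not tested.

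Oct4 and Sox2 bind DNA together at joined sites and hold open the enhancers of stem cell genes, their own among them. Nanog, a homeodomain protein, binds many of the same enhancers, and its level is known to vary from cell to cell in such cultures. Sall4, a zinc finger protein, binds near Pou5f1 and recruits repressor complexes. The 4 genes form a circuit in which each product acts on the genes of the others.

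A composite Oct4 and Sox2 site is known upstream of Nanog, and the sequence is shown for this reason together with the GC-rich DNA upstream of Sox2. Both are 250 bases that end just before the RefSeq start, given 5′ to 3′ on the plus strand in build GRCm38.p6, at chr6:122707239-122707488 for Nanog and chr3:34649745-34649994 for Sox2. Capitals mark matches to the composite and to the octamer part ATGCAAA, which overlaps it. The composite is the Sox element CATTGT, 1 base of any kind, then the Oct element ATGCAA. All motifs were searched on both strands.
Nanog: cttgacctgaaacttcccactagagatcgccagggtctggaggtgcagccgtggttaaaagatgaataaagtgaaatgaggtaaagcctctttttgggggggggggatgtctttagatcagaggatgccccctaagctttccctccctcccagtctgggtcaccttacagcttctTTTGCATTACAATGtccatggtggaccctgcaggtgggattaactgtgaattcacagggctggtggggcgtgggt
Sox2: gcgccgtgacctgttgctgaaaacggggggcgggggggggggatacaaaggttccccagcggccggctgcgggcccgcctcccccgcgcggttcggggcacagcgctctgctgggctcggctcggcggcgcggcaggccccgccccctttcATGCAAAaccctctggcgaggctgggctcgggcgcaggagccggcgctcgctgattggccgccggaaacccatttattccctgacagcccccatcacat
In Nanog the composite lay on the minus strand, 74 to 62 bases before this start. Of 32851 RefSeq windows of this kind 4 (0.0122%) held the composite, and 2 of those 4 were the overlapping windows of Nanog. The octamer part was held by 1355 windows (4.12%), Nanog and Sox2 among them, and in Sox2 it lay 99 to 93 bases before the start. Neither motif was found in the 2 windows of Pou5f1. The Sox element alone, also searched and not marked, was held by 3512 windows (10.7%), Nanog and 1 window of Pou5f1 among them. The Sox2 window was 72% G and C, against a median of 52.4% over all windows. A match describes the letters only.

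The libraries had 18852822 to 34681566 alignments, and 5426 to 6807 genes reached 1 RPKM. The label of an embryonic stem cell line was checked against 9 markers, of which 7 stood at 1 RPKM or more in every library, led by Dppa5a. The summed level of all 9 was 1278 to 2823 RPKM in the sonication libraries and 1594 to 2566 RPKM in the tagmentation libraries. Of 10 fibroblast markers 7 were listed, with sums of 47.9 to 90.0 RPKM after sonication and 44.7 to 69.3 RPKM after tagmentation, led by Acta2. Primitive endoderm (5 of 10 listed, led by Sparc) and trophoblast (5 of 8, led by Gata3) had their highest sums in number 1 of both methods. For endoderm these were 80.8 RPKM after sonication and 85.2 RPKM after tagmentation, against 3.78 to 25.2 RPKM in the other numbers. For trophoblast they were 25.8 and 28.9 RPKM, against 1.58 to 10.3 RPKM. Mesoderm markers (3 of 6, led by T) reached 64.1 and 88.5 RPKM in number 2, against 0.253 to 12.6 RPKM elsewhere. Of the sums in number 2, T alone made 61.3 and 83.2 RPKM, and Mesp1, Kdr and Tbx6 were not listed. Neuroectoderm markers (3 of 6) summed to 2.63 RPKM or less in every library. The defining endoderm genes Gata4, Gata6 and Sox17 were among the endoderm markers that were sought and not listed. These sums moved with the number, as the core factors did, and their part in the results was not tested.

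Pou5f1 had the highest RPKM of the core factors in each of the 6 libraries. In sonicated libraries 1, 2 and 3 it was measured at 182, 251 and 91.5 RPKM, and in tagmented libraries 1, 2 and 3 at 127, 260 and 111 RPKM. Number 2 was the highest and number 3 the lowest with both methods. The transcript length that turns its RPKM into whole reads was 1346 bases, which gave 2323 to 12106 reads per library. Its level lay at the 94.9th to 98.0th percentile of all listed genes, the narrowest band of the 4.

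Sall4 was second to Pou5f1 in every library except sonicated library 2. Its values were 61.0, 7.76 and 23.1 RPKM in sonicated libraries 1, 2 and 3, and 80.2, 10.1 and 52.2 RPKM in tagmented libraries 1, 2 and 3. Number 1 was the highest and number 2 the lowest with both methods. Its rank went from the 68.6th to the 93.8th percentile.

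Sox2, the partner of Oct4 on DNA, stood at 30.7, 9.33 and 21.5 RPKM in sonicated libraries 1, 2 and 3. Its values in tagmented libraries 1, 2 and 3 were 61.6, 3.79 and 12.5 RPKM. As for Sall4, number 1 was the highest and number 2 the lowest with both methods. The length that gave whole reads was 2456 bases, which gave 322 to 3179 reads per library. Its rank went from the 60.9th to the 92.0th percentile. Sox2 lies within the long noncoding gene Sox2ot on the same strand, and how the authors' counting treated shared reads is not given in the sources used here.

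Nanog was the lowest of the 4 in all libraries but tagmented library 2, where Sox2 stood just below it. Sonicated libraries 1, 2 and 3 gave 7.16, 3.85 and 0 RPKM, and tagmented libraries 1, 2 and 3 gave 8.39, 4.48 and 0 RPKM. With both methods it was highest in number 1, intermediate in number 2 and listed at 0 in number 3. For Nanog and Sall4 no single length gave whole reads. Nanog has near-identical copies in the genome, and the listed copy Nanogpd had 0.0572 and 0.121 RPKM in the sonication and tagmentation libraries of number 2, so reads could have been split between them. In number 3 Nanogpd was also listed at 0 in both libraries, and in number 1 it stood at 1.4e-15 and 1.31e-20 RPKM.

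**Figure D1:**
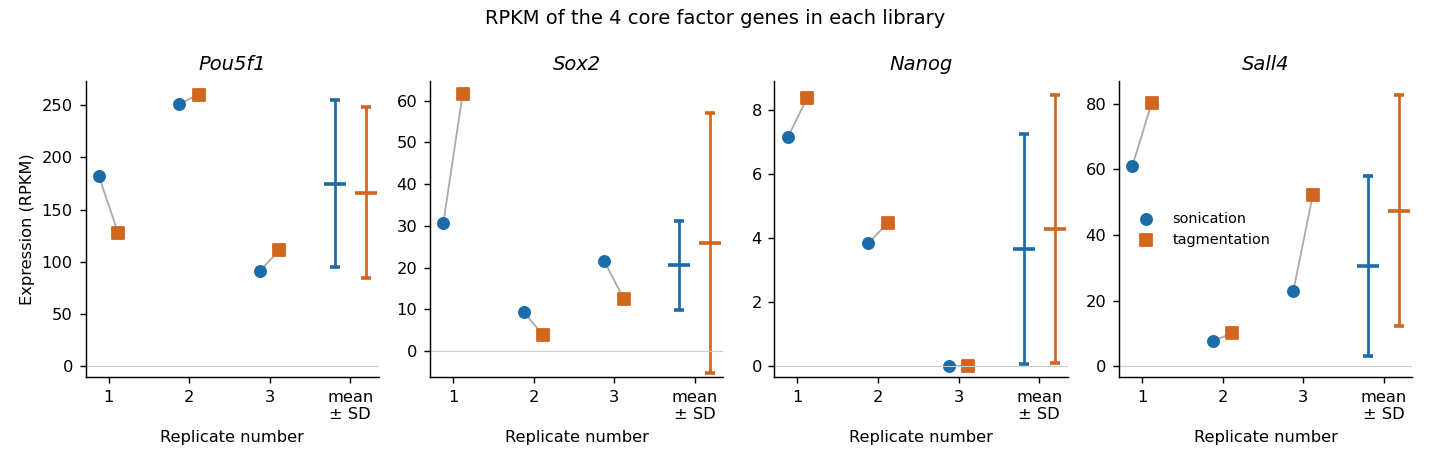
RPKM (y axis) of each gene by replicate number (x axis), with sonication libraries as blue circles, tagmentation libraries as orange squares and a grey line joining libraries of the same number. Bars at the right give the mean ± SD of 3 libraries per method. Pou5f1 peaks in number 2, Sox2 and Sall4 in number 1, and Nanog is at 0 in both libraries of number 3.

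The order of the levels was therefore stable at the top and not below it. Pou5f1 led in 6 of 6 libraries and Nanog was last in 5 of 6. Sall4 stood above Sox2 in 5 of 6 libraries, and the exception was sonicated library 2, with 7.76 against 9.33 RPKM. The gap between Sall4 and Sox2 was narrow in sonicated library 3, at a Sall4 to Sox2 ratio of 1.07, and widest in tagmented library 3, at 4.19. Within each method the SDs of these genes overlapped: Sall4 had 30.6 ± 27.4 RPKM and Sox2 20.5 ± 10.7 RPKM after sonication (SD, n = 3). After tagmentation Sall4 had 47.5 ± 35.3 RPKM and Sox2 26.0 ± 31.2 RPKM (SD, n = 3). Nanog had 3.67 ± 3.58 RPKM and 4.29 ± 4.20 RPKM (SD, n = 3), in the same order of methods. Pou5f1 had 175 ± 80.0 RPKM and 166 ± 81.7 RPKM (SD, n = 3), apart from Sall4 by more than these SDs with both methods. The SDs of Sox2 and Nanog overlapped after tagmentation and not after sonication. Pou5f1 varied least in relation to its mean, with an SD of 45.8% of the mean after sonication and 49.2% after tagmentation. For the other genes this share was 52.4% to 120%, the highest being Sox2 after tagmentation.

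**Figure D2:**
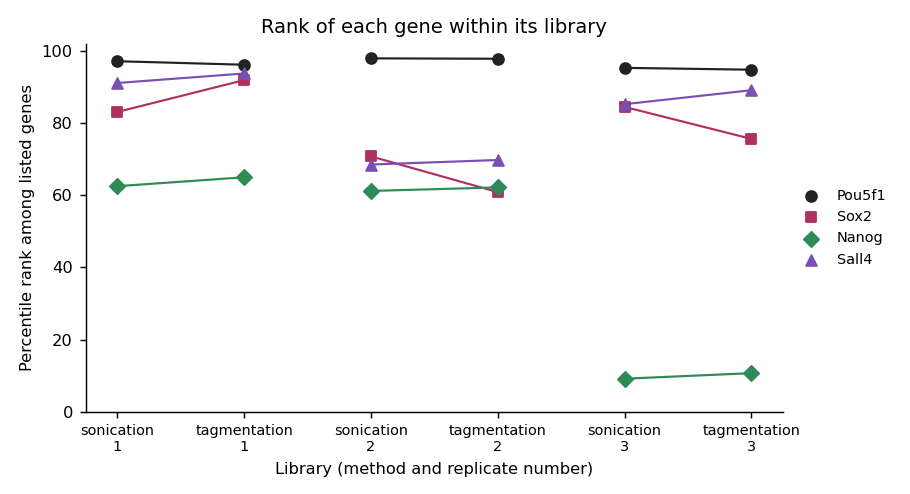
Percentile rank (y axis) of each gene among the 12331 listed genes, in each library (x axis), with lines joining the methods within a number. Pou5f1 stays near the top, Sox2 and Sall4 drop in number 2, and Nanog at 0 RPKM shares the bottom rank with all other genes at 0 in number 3.

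The ratios of Pou5f1 RPKM to those of Sox2 and Sall4 differed by number much more than the level of Pou5f1 itself. They are ratios of RNA, and ratios of other gene pairs were not computed as a background. Over the 6327 genes tested below, the largest difference of log2 means between numbers had a median of 2.38. In number 1 there were 5.91 Pou5f1 units per Sox2 unit (ratio of RPKM) after sonication and 2.07 after tagmentation. In number 2 the ratio was 26.9 and 68.6. In number 3 it was 4.26 and 8.89. Number 2 thus stood above the others with both methods, since its Pou5f1 was the highest and its Sox2 the lowest. The ratio of Pou5f1 to Sall4 was also highest in number 2, with 2.98 and 1.59 in number 1, 32.4 and 25.8 in number 2, and 3.97 and 2.12 in number 3. No number was low in all 4 genes: the lowest number was 2 for Sox2 and Sall4, and 3 for Pou5f1 and Nanog.

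**Figure D3:**
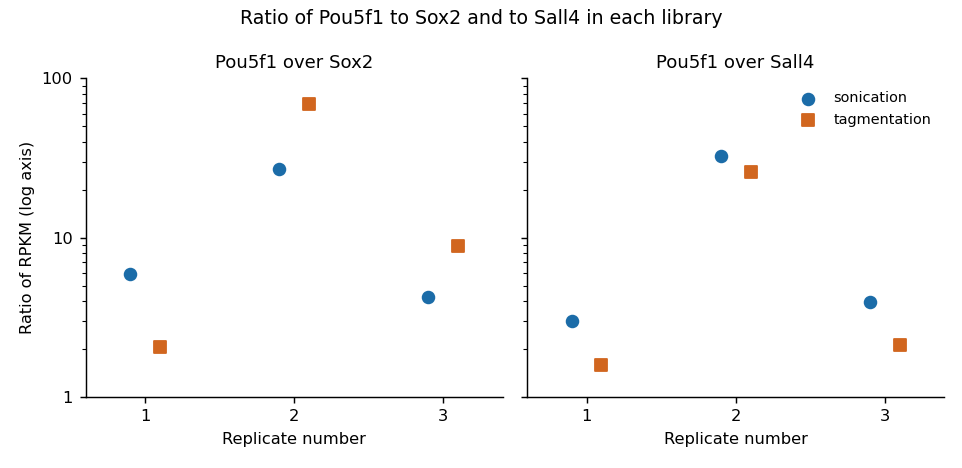
Ratio of Pou5f1 RPKM to Sox2 RPKM (left) and to Sall4 RPKM (right) on a log axis, by replicate number (x axis), with sonication as blue circles and tagmentation as orange squares. The libraries of number 2 lie between 25.8 and 68.6, and the other libraries between 1.59 and 8.89.

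Levels were then tested between the numbers with limma on log2(RPKM + 1), with the method as a term and Benjamini-Hochberg adjustment over the 6327 genes that had 1 RPKM or more in at least 3 libraries. All 4 core factors passed that filter, Nanog through numbers 1 and 2. In limma's F test at an adjusted p under 0.05 all 4 differed between numbers, and so did 88.1% of all tested genes, so their count is that of the background. For Nanog the filter itself made a difference from number 3 certain. The libraries of any number did not overlap with those of another in all 4 genes, which held for 55.6% of tested genes. The largest difference of log2 means was 1.33 for Pou5f1, 2.66 for Sox2, 2.85 for Sall4 and 3.13 for Nanog, against a median of 2.38 over tested genes. It reached 2, or 4-fold, for 3 of the 4 genes and for 58.5% of tested genes. The error of this test is the difference between the methods inside a number, where each method has 1 library. It is drawn almost wholly from genes of like level, so its SEs describe such genes together and not one gene.

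Sox2 and Sall4 were lower in number 2 than in number 1. The mean of the 2 libraries was 46.2 RPKM in number 1 and 6.56 RPKM in number 2 for Sox2, a ratio of 7.04. For Sall4 it was 70.6 and 8.91 RPKM, a ratio of 7.92. On the log2(RPKM + 1) scale, which understates changes of low genes, the differences were -2.66 (SE 0.36, limma adjusted p 2.05e-11) and -2.85 (SE 0.36, limma adjusted p 6.8e-13). With no filter on low values the limma adjusted p was 0.0253 for Sox2 and 0.00297 for Sall4, so the size of these p-values rests on the setting. Of all tested genes 34.6% were called lower in this contrast. Both calls held without any 1 library. For Sox2 the difference was -1.71 without tagmented library 1 (limma adjusted p 6.1e-04).

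Both genes were higher in number 3 than in number 2, Sall4 by 1.86 (SE 0.36, limma adjusted p 1.97e-06) and Sox2 by 1.31 (SE 0.36, limma adjusted p 9.5e-04), as were 21.4% of tested genes. The ratio of RPKM, number 3 over number 2, was 4.22 for Sall4 and 2.59 for Sox2. Without tagmented library 2 neither passed limma's test (adjusted p 0.120 and 0.567), and Sox2 did not without sonicated library 3 either (0.97, adjusted p 0.0815). Without tagmented library 2 the Sox2 difference was 0.69. In number 3 both stayed below number 1, by -0.99 for Sall4 (limma adjusted p 0.0102) and -1.36 for Sox2 (limma adjusted p 4.48e-04), where 43.2% of tested genes were called lower. The Sall4 call was lost without sonicated library 2 (limma adjusted p 0.166), sonicated library 3 (-0.60, limma adjusted p 0.295) or tagmented library 2 (limma adjusted p 0.167). The Sox2 call was lost without tagmented library 1 (-0.41, limma adjusted p 0.226) or tagmented library 3 (limma adjusted p 0.0626), and its difference was -2.31 without sonicated library 1.

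Pou5f1 stood the other way round between numbers 1 and 2, with means of 155 and 255 RPKM, but this difference of 0.74 did not pass (SE 0.37, limma adjusted p 0.0611), in a contrast that called 36.5% of tested genes higher. It did without sonicated library 1 (1.08, limma adjusted p 0.00275), and was 0.41 without tagmented library 1 (limma adjusted p 0.141). Pou5f1 was lower in number 3 than in number 2, with a difference of -1.33 (SE 0.37, limma adjusted p 7.97e-04), as were 41.7% of tested genes. The mean in number 3 was 101 RPKM, and number 2 over number 3 gave a ratio of 2.52. This call was lost without sonicated library 2 (limma adjusted p 0.218), sonicated library 3 (0.0954) or tagmented library 2 (0.303). The difference between numbers 3 and 1 was -0.59 and did not pass (limma adjusted p 0.136). It passed without tagmented library 1 (-0.93, limma adjusted p 0.00536), and was -0.25 without sonicated library 1 (limma adjusted p 0.339) and -0.34 without sonicated library 3 (limma adjusted p 0.606).

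Nanog had a mean of 7.77 RPKM in number 1 and was lower in number 2, at 4.17 RPKM, with a difference of -0.76 (SE 0.34, limma adjusted p 0.0363). That call was lost without sonicated library 2 (limma adjusted p 0.314), tagmented library 1 (0.0814) or tagmented library 2 (0.252). For number 3 against number 1 and number 2, the differences of Nanog on the log2(RPKM + 1) scale were -3.13 and -2.37 (SE 0.34 each, limma adjusted p 1.63e-16 and 2e-10). Nanog passed the filter only through the numbers where it was high, so it had to differ from number 3, and these p-values are no support for a difference. With no filter they were 0.00156 and 0.00448. The size of the differences was set by the pseudocount, being -6.29 and -5.41 with 0.1 RPKM in place of 1, and it is no bound on the fold.

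The absence of Nanog reads from number 3 was looked at against genes of like level. On the shortest of 3 coding transcripts of GENCODE M21, 1995 bases long, 3 reads would have been 0.0798 RPKM in sonicated library 3 and 0.0434 RPKM in tagmented library 3. The length is from another annotation than the authors', and the limit covers counting error only. In the 4 libraries of numbers 1 and 2 Nanog had a mean of 5.97 RPKM, or 84.7 to 217 reads per kilobase, so these zeros lie far below its level there. Of 4448 genes at 1 RPKM or more in these 4 libraries, 20 (0.45%) were listed at 0 in both libraries of number 3, Nanog among them. Within 2-fold of the Nanog mean it was 15 of 1083 genes (1.39%). For number 1 the same count was 124 of 1071 genes (11.6%), and for number 2 it was 14 of 967 (1.45%). A gene at 1 RPKM or more in one library was listed at 0 in the library of the same number and other method in 14 cases at most (number 3, present after sonication), or 0.230% of 6077 genes. With both methods Nanog was thus detected in numbers 1 and 2 and listed at 0 in number 3.

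Between the methods none of the 4 genes passed. Limma without the number as a term gave log2 fold changes, tagmentation over sonication, of -0.06 for Pou5f1 (SE 0.52), -0.29 for Sox2 (SE 1.09), 0.13 for Nanog (SE 1.23) and 0.62 for Sall4 (SE 0.99). It called 0 of 6327 genes (0%), with 18 at an unadjusted p under 0.05, and each of the 4 had an adjusted p of 1.00. With the number as a block limma called 208 genes (3.29%), and none was a core factor. Their adjusted p was then 0.947 for Pou5f1, 0.696 for Sox2, 0.875 for Nanog and 0.255 for Sall4, with SEs of 0.28 to 0.30. The libraries of the methods overlapped in all 4 genes, and they did not overlap in 2.4% of tested genes. In simulated data 200 of 6327 genes were changed, with noise drawn from the residual spread of each gene. There the fit without the block found 0% of 4-fold changes. The fit with it found 73.5% of 4-fold and 0% of 2-fold changes. In the data that fit called genes near 2-fold, such as Kdm4c (0.93), so these shares do not describe its reach there. A core factor that was not called can still differ between methods.

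Sall4 was the core factor that stood higher after tagmentation in 3 of 3 pairs, which held for 19.6% of tested genes. Its ratio of tagmentation to sonication RPKM was 1.31 in number 1, 1.30 in number 2 and 2.26 in number 3. Nanog had ratios of 1.17 and 1.16 in numbers 1 and 2, and none in number 3. Pou5f1 had ratios of 0.700, 1.03 and 1.21 in numbers 1 to 3. Their 95% intervals, exact Clopper-Pearson on the reads and for counting error only, were 0.673 to 0.729, 1.01 to 1.07 and 1.15 to 1.27.

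Sox2 turned direction between pairs. It stood higher after tagmentation in number 1, with a ratio of 2.00 (95% interval on the reads 1.90 to 2.12). It stood lower in number 2, with 0.406 (0.352 to 0.468), and in number 3, with 0.581 (0.532 to 0.634). These intervals compare single libraries and not the methods. On the log2(RPKM + 1) scale the differences were 0.98, -1.11 and -0.74, larger in size than those of 95.9%, 95.1% and 69.7% of tested genes in the same pairs. Without number 1, limma with the block called Sox2 lower after tagmentation (-0.92, adjusted p 0.0233), a fit that called 1051 of 6327 genes. Number 1 was the pair where Sox2 stood higher, so leaving it out fixed the direction, and this p-value is no support for a difference. Each pair holds 1 library per method, so a difference between the pairs cannot be tested.

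**Figure D4:**
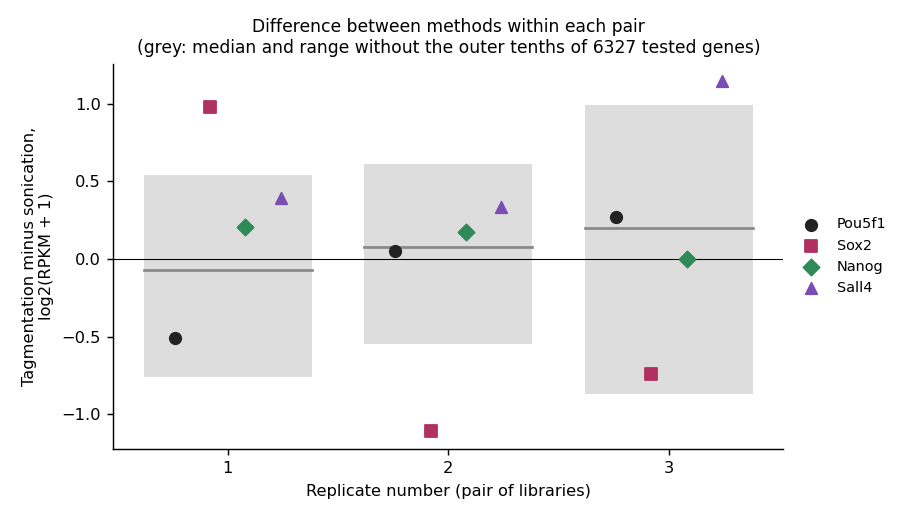
Difference between methods within each pair (y axis, tagmentation minus sonication on the log2(RPKM + 1) scale) by replicate number (x axis), for the 4 genes. Grey boxes span the 6327 tested genes without the highest and the lowest 10%, with a line at their median. Sox2 lies above the box in number 1 and below it in number 2, and Sall4 lies above it in number 3.

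Genes whose levels ran most like those of each core factor were found by Pearson correlation of log2(RPKM + 1) over the 6 libraries, among 3911 tested genes with a mean of at least 10 RPKM. The libraries fall into 3 numbers, so a high value needs little more than the right order of 3 levels, and it is a description only. Most like Pou5f1 were Aurkaip1 (0.996), Acadvl (0.996) and Phf5a (0.995). Phf5a, a subunit of the splicing factor SF3b, stood at 94.2, 127 and 47.5 RPKM in sonicated libraries 1, 2 and 3 and at 68.8, 133 and 52.7 RPKM in tagmented libraries 1, 2 and 3. Most like Sall4 were Degs1 (0.999), Gtf2h1 (0.996) and Fkbp1a (0.995). Most like Nanog were Ncbp1 (0.999), Adnp (0.997) and Cdc25a (0.997). Ncbp1, the large subunit of the nuclear cap-binding complex, had 0.426 and 0.612 RPKM in the libraries of number 3, and so was not lost entirely there. In number 1 it had 34.7 and 34.3 RPKM, where Nanog had 7.16 and 8.39 RPKM. With this higher level, its values above 0 in number 3 do not set it apart from Nanog. Most like Sox2 were Rad21 (0.986), Rpl39 (0.979) and Tdgf1 (0.978). Rad21, a subunit of cohesin, stood higher after tagmentation in number 1 (52.6 against 26.1 RPKM) and lower in number 2 (1.68 against 6.53 RPKM). Tdgf1 is a coreceptor of Nodal signalling and a known stem cell marker. It had, in the same order, 163 against 135 RPKM in number 1 and 7.48 against 26.6 RPKM in number 2. These genes were picked for their likeness to Sox2 over the same 6 libraries. That they turn with Sox2 between methods is therefore part of the choice and no support for it. A correlation over 0.95 was reached by 306 genes with Nanog, 168 with Pou5f1, 96 with Sall4 and 23 with Sox2.

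Paralogues share the DNA-binding domain of a core factor, and 6 of 20 listed for this purpose were tested. Sox15, a Sox gene that can also pair with Oct4, stood at 15.9, 64.6 and 22.7 RPKM in sonicated libraries 1, 2 and 3 and at 10.4, 67.2 and 21.5 RPKM in tagmented libraries 1, 2 and 3. Its highest number was thus number 2, where Sox2 was lowest, and 2414 of 6327 tested genes were also highest there. Sox12 was highest in number 3 (41.1 and 49.4 RPKM) and lowest in number 1 (6.68 and 6.60 RPKM). Sall1, the relative of Sall4, was not called between numbers (adjusted p of limma's F test 0.613) and had 11.9 to 27.1 RPKM over all libraries. Pou3f1, a POU factor of the primed epiblast, had 23.1 and 58.3 RPKM in number 2 against 0.581 to 6.88 RPKM elsewhere. It was the paralogue called between methods with the block (0.98, limma adjusted p 0.0309). In all, 5 of the 6 differed between numbers, a share near the 88.1% of all tested genes.

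Proteins that bind the core factors, such as subunits of the NuRD repressor complex, were tested in 35 of 38 cases, and 28 of them differed between numbers in limma's F test, where 88.1% of all tested genes did. Trim28, a corepressor, had 180 to 391 RPKM and was not called between numbers (adjusted p 0.190). Mbd3, a NuRD subunit, had its lowest values in number 1 (119 and 51.5 RPKM) and its highest in number 3 (282 and 216 RPKM). Mta3, another NuRD subunit, was lowest in number 1 (18.2 and 16.4 RPKM) and highest in number 2 (218 and 245 RPKM). Xpc, a DNA repair protein that also acts as a coactivator of Oct4 and Sox2, was under 1 RPKM in number 1 (0.318 and 0.105 RPKM) and highest in number 2 (35.5 and 49.7 RPKM). Klf4 also stood under 1 RPKM in number 1 (0.336 and 0.141 RPKM). Hdac1, a deacetylase of NuRD, was the partner called between methods with the block (1.01, limma adjusted p 0.0315).

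Genes that act upstream of Pou5f1, Sox2 or Nanog were tested in 17 of 25 cases, and 15 differed between numbers, against 88.1% of all tested genes. Tcf7l1, a repressor of Nanog, had 35.3, 109 and 157 RPKM in the sonicated libraries 1, 2 and 3 and 25.1, 73.9 and 74.1 RPKM in the tagmented ones. It was lowest in number 1 with both methods, and the tagmented libraries 2 and 3 were nearly level. Ctnnb1, which encodes beta-catenin, was highest in number 1 (221 and 287 RPKM) and lowest in number 3 (67.3 and 144 RPKM). Dppa4 was also highest in number 1 (141 and 116 RPKM) and lowest in number 3 (34.5 and 48.9 RPKM). Kdm3a, a histone demethylase, had 50.7 and 59.0 RPKM in number 1 and 0.556 to 2.57 RPKM elsewhere. Myc was low in number 3, with 1.35 and 2.26 RPKM against 46.8 to 66.4 RPKM elsewhere. Kdm4c, a demethylase linked to Nanog expression, was called higher after tagmentation with the block (0.93, limma adjusted p 0.0466).

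Known target genes of the core factors were tested in 22 of 25 cases, and 18 differed between numbers, against 88.1% of all tested genes. Dppa5a was highest in number 1 (1739 and 1625 RPKM) and lowest in number 3 (455 and 670 RPKM). Utf1 (231 to 679 RPKM) and Zfp42 (164 to 444 RPKM) were not called between numbers, with adjusted p of 0.0897 and 0.0618 in limma's F test. Fbxo15, a classical target of Oct4 and Sox2, had 98.9 and 95.9 RPKM in number 1 and 0.965 to 9.60 RPKM elsewhere. Cdyl, a chromodomain corepressor, had 28.4 and 44.9 RPKM in number 1 and 0.00835 to 2.03 RPKM elsewhere. Fbxo15 (-1.37, limma adjusted p 0.00152) and Lefty1 (-0.95, limma adjusted p 0.0478) were the targets called between methods with the block, both lower after tagmentation.

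Lineage factors that oppose the circuit were listed for 9 of 20 genes and tested for 2, T and Tfap2c, which stands in the table as Tcfap2c. T, the mesoderm factor Brachyury, was highest in number 2 (61.3 and 83.2 RPKM), lower in number 3 (7.08 and 12.6 RPKM) and lowest in number 1 (0.145 and 0.209 RPKM). Its highest level was in number 2, as for 2414 of 6327 tested genes. Number 2 had the lowest Sox2 and Sall4 and the highest Pou5f1. Gata3 was highest in number 1, with 20.6 RPKM in both libraries of number 1 and 0.171 to 0.561 RPKM elsewhere. The median log2 fold change between methods was 0.27 for paralogues, 0.11 for partners, 0.19 for upstream genes, 0.26 for targets and 0.51 for lineage factors, against 0.03 for all tested genes. No gene of these lists was called between methods without the block. With the block and no filter on low values limma called 0 genes, so none of these lists. The median largest difference between numbers was 2.22, 1.63, 1.97, 1.87 and 3.78 for these lists in the same order, against 2.38 for all tested genes. Esrrb, Klf2 and Mycn stand in more than one list.

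**Figure D5:**
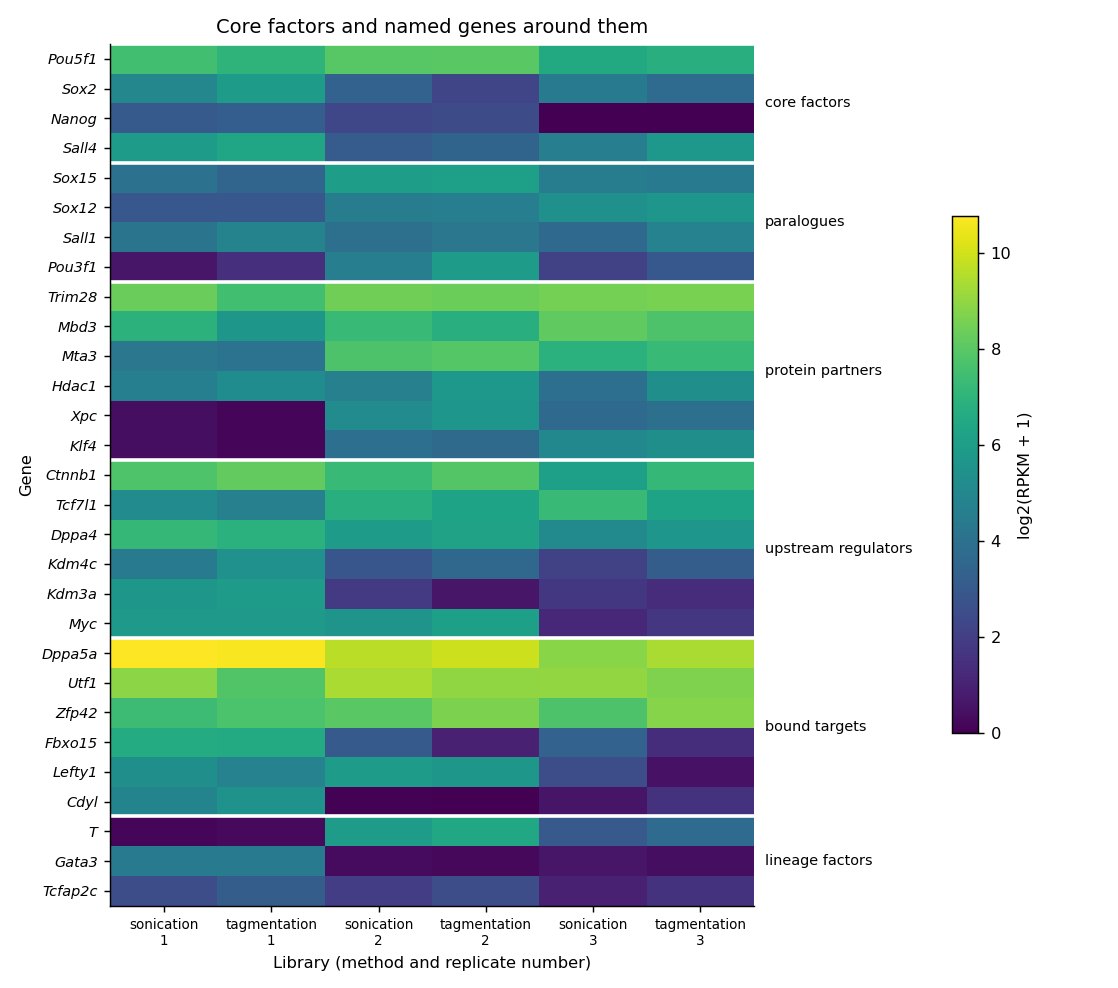
Level of the core factors and of the named genes of each list (rows) in the 6 libraries (columns, ordered by number), as log2(RPKM + 1) on the colour scale. The libraries of one number look alike across methods, and T, Xpc and Klf4 are near 0 in number 1 while Gata3 and Cdyl are near 0 in number 2.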

How the data were processed

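The table held RPKM as the authors deposited it, per the file headers, with a column and an alignment total for each of 6 libraries (3 per method). Build mm9, CASAVA 1.7.0 and Partek are named, without roles, in the submitters' processing notes. Aligner and annotation: not given in the sources used here.

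Genes at 1 RPKM or more in at least 3 libraries were tested as log2(RPKM + 1) with limma 3.58.1 (R 4.3.3; eBayes with a trend, two-sided, Benjamini-Hochberg adjustment, threshold 0.05). Methods were compared without other terms, with the replicate number as a block as the alternative. Numbers were compared with the method as a term. Whether same-number libraries share a cDNA is not in the labels. After the mean of each method was taken off, same-number libraries correlated by 0.952, 0.969 and 0.934, so they were taken as pairs. The models were tested on simulated data with 200 of 6327 genes changed: 43% of 4-fold and 0% of 2-fold changes between numbers were recovered. In the data 5577 genes were called between numbers, so these shares do not give the sensitivity of the test there. Whole reads were sought with a tolerance of 0.002 reads plus 1e-05 of the reads.

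The members, gene lists and tests were chosen with earlier results of these data known. Genes were named by a rule: the members, the 3 genes most like each, and in each list the 3 with the highest mean, those called between methods, and the 2 with the largest difference between numbers at a mean of 10 RPKM or more. Symbols were matched directly or through RefSeq synonyms, and the promoter table held 3 of the 4 members. Alternatives were another pseudocount, filter or scaling, and leaving out libraries.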

Additional observations from a re-analysis of the deposited data

How the results depend on the processing

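Between methods, limma without the replicate block called 0 genes under each alternative without it. With the replicate block it called 208, and then 8 with a pseudocount of 0.1 RPKM, 168 with 5 RPKM, 0 with no filter, 168 when a mean of 10 RPKM was required, 64 with median-ratio scaling and 261 with quantile normalization. With the block and without both libraries of 1 number the counts were 10 to 1051 (19 without number 3). The fold changes of the core factors between methods turned sign when single libraries were left out: Pou5f1 ranged from -0.47 to 0.26, Sox2 from -1.28 to 0.58, Nanog from -0.76 to 1.07 and Sall4 from -0.090 to 1.48. With the block, Pou5f1 gave 0.16 without replicate 1 and Sox2 0.12 without replicate 2. None of these turned values passed.

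The count of genes that differed between numbers was 5577, and 3411 when a mean of 10 RPKM was required, which left 4023 genes to test and not Nanog. Median-ratio scaling, taken over every gene above 0 in all 6 libraries, very small values included, moved the median of all tested genes from -0.33 to 0.20 for number 3 minus number 1, and from -0.42 to 0.00 for number 3 minus number 2. Pou5f1 then stood at 0.0018 for number 3 minus number 1. With this scaling Pou5f1 was called higher in number 2 than in number 1 (adjusted p 0.0275), and the calls for number 3 minus number 1 of Sox2 (0.0817) and Sall4 (0.267) and for number 2 minus number 1 of Nanog (0.0652) were lost. Quantile normalization ended the Sox2 (0.162) and Nanog (0.445) calls of the same contrasts and called both contrasts of Pou5f1 with number 1. With no filter Sox2 lost number 3 minus number 1 (0.139) and number 3 minus number 2 (0.193), and with a pseudocount of 0.1 RPKM Nanog lost number 2 minus number 1 (0.107). Median-ratio scaling over genes at 1 RPKM or more in all 6 libraries was chosen after seeing the data. With it limma called 0 genes between methods, 554 with the replicate block, and 5848 between numbers, and the median of tested genes was -0.21 for number 3 minus number 1. Pou5f1 was then called in both contrasts with number 1 (0.44, adjusted p 0.00613, and -0.46, adjusted p 0.00515), and Sox2 lost number 3 minus number 1 (0.164) and number 3 minus number 2 (0.0919). The causes were not tested. The lower Sox2 and Sall4 in number 2 than in number 1 kept direction and call under every alternative that gave a value. The size of the p-values did not hold. With the scaling chosen after seeing the data the limma adjusted p was 0.0174 for Sox2 and 2.7e-04 for Sall4.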
